A study of Mus musculus with 3 samples.

Results

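T and NK cells of the mouse diaphragm, the main muscle of inspiration, were examined in 3 single-cell RNA-Seq (scRNA-Seq) libraries of mononuclear cells. The cells were selected on their own counts of unique molecular identifiers (UMIs), each of which marks 1 captured mRNA molecule. A barcode was taken when *Cd3d*, *Cd3e* and *Trbc2* together reached 2 UMIs or *Nkg7* and *Klrb1c* together reached 3 UMIs. It also had to hold at least 1 *Ptprc* UMI, at most 1 *C1qa* UMI, and 0 UMIs of *Cd79a* and *Pdgfra*. The rule found 160 cells among 12275 barcodes, or 1.30%, and these are called members here. The WT CD library came from C57Bl/6J mice on control diet (CD), the WT HFD library from C57Bl/6J mice on high-fat diet (HFD), and the KO HFD library from B6.129S2-Thbs1tm1Hyn/J mice, which lack thrombospondin 1 in every cell, on HFD. The mice were male. Each diet lasted 6 months, with lipid supplying 45% of the energy in HFD. Diaphragms were pooled within a group, collagenase digestion released the cells, and dead cells were sorted out. With 1 library per group, no difference between groups has a replicate check and no test was made, and all intervals below are 95% intervals for counting error only. There was no KO CD library, so genotype was compared on HFD alone.

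T cells recognise antigen through a T cell receptor held at the surface by the CD3 chains, and CD4 or CD8 coreceptors divide most of those with an alpha-beta receptor into helper or regulatory cells and cytotoxic cells. Gamma-delta T cells carry another receptor and are often found in tissues as producers of interleukin 17. NK cells have no rearranged antigen receptor and are steered by activating and inhibitory receptors such as NKp46 (*Ncr1*) and CD94 (*Klrd1*), and both NK and CD8 T cells kill with perforin and granzymes. Group 2 innate lymphoid cells also lack an antigen receptor, depend on GATA3 and respond to interleukin 33 through ST2 (*Il1rl1*). All of these cells are found in muscle and fat, where regulatory T cells and group 2 innate lymphoid cells are known as sources of amphiregulin (*Areg*).

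The WT CD library held 67 members among 4132 barcodes, or 1.62% (exact interval 1.26 to 2.06%). The WT HFD library held 37 among 3774, or 0.980% (0.691 to 1.35%), and the KO HFD library 56 among 4369, or 1.28% (0.970 to 1.66%). The WT HFD share was 0.641 percentage points below the WT CD share, and the Newcombe interval of that difference, from -1.15 to -0.138 points, did not reach 0. The KO HFD share lay 0.301 points above the WT HFD share, with an interval from -0.169 to 0.766 that spans 0. Among barcodes with a *Ptprc* UMI, the gene of the leukocyte antigen CD45, members made up 67 of 712 (9.41%) in WT CD, 37 of 622 (5.95%) in WT HFD and 56 of 734 (7.63%) in KO HFD. The order of the libraries was the same with these 2 denominators, but not with every measure. With 2 UMIs of the T and NK genes outside the rule in place of its CD3 and NK counts, KO HFD was the highest, at 4.51% against 4.14% in WT CD and 2.97% in WT HFD. Per 100 B cells (at least 2 *Cd79a* UMIs), members numbered 16.4 in WT CD, 23.3 in WT HFD and 60.2 in KO HFD. B cells numbered 408, 159 and 93, and macrophages (at least 2 *C1qa* UMIs), which share the *Ptprc* denominator, numbered 160, 343 and 326.

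**Figure D1:**
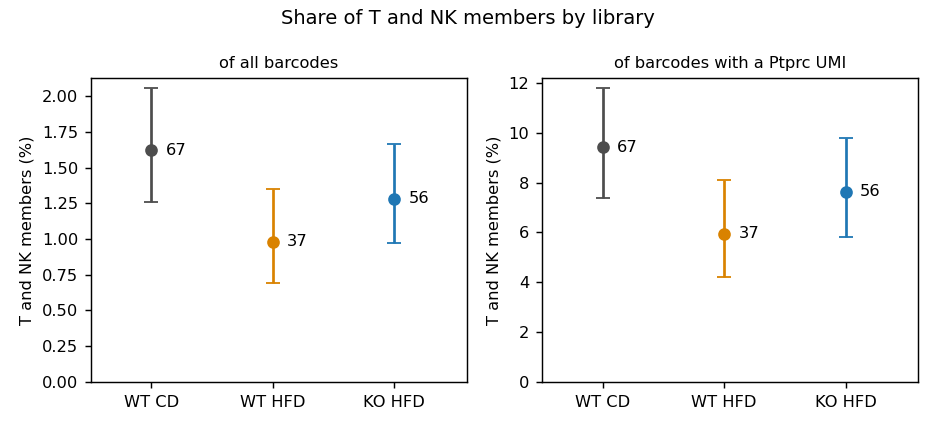
Share of T and NK members (%) in each library, of all barcodes (left) and of barcodes with a *Ptprc* UMI (right). Points give the share, bars the exact 95% interval for counting error and numbers the members. WT HFD had the lowest share in both panels and WT CD the highest (1.62% and 9.41%).

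The libraries were of similar depth, with 34312860 UMIs in WT CD, 31967976 in WT HFD and 36478779 in KO HFD. The median member was shallower than the median barcode. It held 6209 UMIs in WT CD, 5560 in WT HFD and 5518 in KO HFD, against 7632.5, 8041.5 and 7554 over all barcodes. Mitochondrial UMIs made up a median of 3.24% of a member's total in WT CD and 3.61% in KO HFD, with WT HFD between them. The deepest member of WT HFD, a CD8-type cell by a single *Cd8b1* UMI, held 31857 of that library's 246989 member UMIs (12.9%), and the genes and levels it was found to change are given without it as well. Some barcode sequences occurred in more than 1 library (7 in WT CD and WT HFD, 7 in WT CD and KO HFD, 2 in WT HFD and KO HFD), but none of them was a member.

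The CD3 and *Trbc2* counts alone brought in 34 members in WT CD, 12 in WT HFD and 34 in KO HFD, and *Nkg7* and *Klrb1c* alone brought in 2, 6 and 7. Both did so in 31, 19 and 15. Just inside the rule, 6 members of WT CD and 6 of KO HFD had 2 UMIs of *Cd3d*, *Cd3e* and *Trbc2* and fewer than 3 of *Nkg7* and *Klrb1c*, and 2 members of WT HFD and 1 of KO HFD came in with 3 of the latter and fewer than 2 of the former. Just outside it, 4, 6 and 7 barcodes of WT CD, WT HFD and KO HFD met every other limit with 1 UMI of the CD3 and *Trbc2* genes, and 0, 1 and 3 with 2 of *Nkg7* and *Klrb1c*. A further 15, 10 and 16 barcodes reached the CD3 or NK count but failed another limit, and 6, 3 and 11 of them held no *Ptprc* UMI. *Klrb1c*, the gene of NK1.1, was found in only 3 members, so the NK arm of the rule was in practice a count of *Nkg7*, a granule protein gene. As values that chose the members, *Cd3d* reached 586, 510 and 301 CPM (UMIs of the gene per 1000000 UMIs, summed over the members of a library) in WT CD, WT HFD and KO HFD, and *Trbc2* 1156, 947 and 633 CPM.

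Cells with RNA of another cell type were looked for with 10 marker lists. In 14 members, 1 of these lists reached 20 UMIs or more, and such members are called mixed. They numbered 5 in WT CD, 1 in WT HFD and 8 in KO HFD. The dendritic cell list was the highest in 3 of WT CD, 1 of WT HFD and 2 of KO HFD, with up to 1008 UMIs in a cell. The list of fibro-adipogenic progenitors (FAPs), the main stromal cells of muscle, was the highest in 2 of WT CD and 1 of KO HFD, and the macrophage list in 1 of KO HFD. The other 4, all in KO HFD and all without CD3, held 38, 52, 60 and 73 UMIs of the endothelial list, of which 30, 43, 48 and 60 were *Fabp4*, a fatty acid binding protein gene that endothelium shares with other cells. The other endothelial genes gave 8 to 13 UMIs in each, fewer than the 15 of a KO HFD member that stayed below the limit, and 4 to 7 of the 7 genes were found. Without *Fabp4* 3 of the 4 would not be mixed, and the fourth would be by 26 UMIs of the macrophage list. The next lower member had 17 UMIs of the endothelial list and the one after it 10 of the dendritic cell list, so the endothelial list alone had values near the limit. Scrublet, a doublet caller, marked 2 of the 160 members, both of them mixed, and only 1.26%, 1.09% and 1.33% of all barcodes. The limit of 20 UMIs was set after these counts were seen, and counts of genes past 2-fold are given for all members and without the mixed ones.

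**Figure D2:**
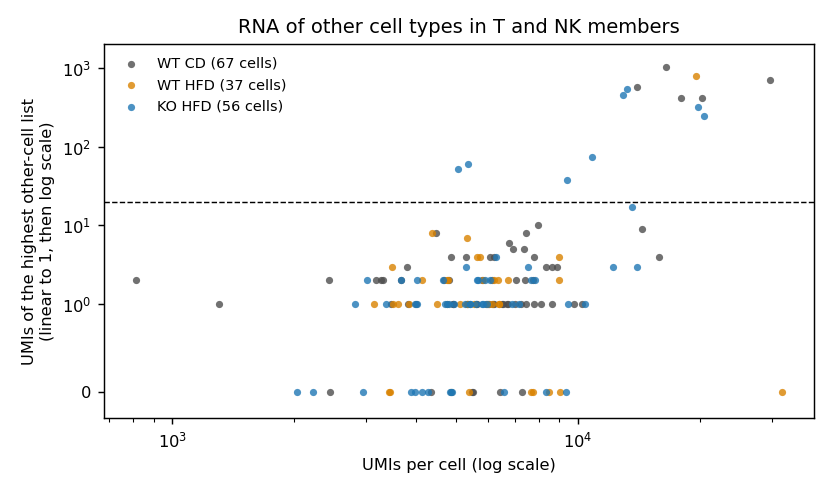
UMIs of the highest of the 10 other-cell lists in each member (vertical axis, linear to 1 and then logarithmic) against its total UMIs (horizontal axis, log scale). The dashed line marks 20 UMIs. Above it lie 14 members, between 38 and 1008 UMIs.

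Over all members, the FAP list (7 of its 8 genes found in WT CD, 4 in WT HFD and 7 in KO HFD) summed to 2121, 36.4 and 694 CPM, with *Gsn* its most abundant gene in WT CD and WT HFD and *Dcn* in KO HFD. *Pdgfra* was at 0 by the rule, which also held *C1qa* of the macrophage list to at most 1 UMI per member. The macrophage list summed to 1686, 599 and 2136 CPM, led by *Lyz2*, and the dendritic cell list to 4583, 3227 and 3152 CPM, led by *Cd74*. *Xcr1* and *Clec9a* of the dendritic cell list were at 0 in WT CD and WT HFD, and *Clec9a* in KO HFD also. The endothelial list stood at 58.0, 20.2 and 654 CPM, and *Fabp4* gave 184 of its 248 UMIs in KO HFD. Mesothelial genes reached 2.07, 4.05 and 145 CPM, mast cell and basophil genes 78.7, 48.6 and 79.1 CPM, most of it *Kit*, with *Cpa3*, *Ms4a2*, *Mcpt8* and *Tpsb2* at 0. Muscle genes gave 14.5, 0 and 7.91 CPM, erythroid genes 12.4, 48.6 and 21.1 CPM, and neutrophil genes 0, 0 and 7.91 CPM.

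Once mixed members were left out, the macrophage list came to 8, 7 and 3 UMIs in all, the dendritic cell list to 27, 15 and 5, the FAP list to 28, 8 and 13 and the endothelial list to 24, 4 and 25. The B cell list summed to 193, 130 and 79.1 CPM over all members and to 198, 128 and 49.6 CPM without the mixed ones. *Ms4a1*, *Ighd* and *Pax5* were at 0 in each library, as was *Cd79a* by the rule. The *Igkc* UMIs of the list came to 56, 10 and 0, and 26 of 67, 6 of 37 and 0 of 56 members held one. Among cells with at least 2 *Pdgfra* UMIs and no *Ptprc*, which should lack the gene, 30.4%, 2.64% and 3.37% held an *Igkc* UMI. Those cells were deeper (medians of 8804.5, 9312 and 8608 UMIs). *Igkc* was thus frequent outside B cells in WT CD, the library with most B cells (408, against 159 and 93), and its source in the members was not tested.

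Members carried RNA of T and NK genes that the rule had not asked for. All 160 held at least 2 UMIs of a list of 24 T and NK genes outside the rule, with a median of 22. Put in place of the CD3 and NK counts, that limit took in 171, 112 and 197 barcodes, so it was not particular to members. Members were set against all other barcodes of the same library, which is a description since they were chosen on related genes. Genes outside the rule that were found in at least 20% of members were ranked by mean log2 ratio. The largest belonged to *Sh2d1a* (10.1), which encodes the signalling adaptor SAP, to *Ccl5* (9.52) and to *Cd8b1* (9.02). Then came the protease gene *Ctsw* (8.66), *Ms4a4b* (8.31), the CD3 gene *Cd3g* (8.18) and the receptor constant genes *Trbc1* (8.07) and *Tcrg-C1* (7.88). *Skap1* (7.71) and *Lat* (7.64), both adaptors of T cell receptor signalling, the surface receptor gene *Cd6* (7.59), *Cst7* (7.58), *Tnfsf11* (7.50), *Tcrg-C4* (7.49) and *Bcl11b* (7.47), a transcription factor of the T lineage, completed the first 15. *Sh2d1a* was at 0 in the other KO HFD barcodes and was counted there at the floor of 3 UMIs, so its KO HFD ratio of 7.80 is a lower bound. Reads of *Trbc1* and *Trbc2*, and of the *Tcrg-C* genes, can be exchanged between near-identical copies, so the level of a single copy is uncertain.

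*Cd3g* stood at 607, 721 and 559 CPM in members of WT CD, WT HFD and KO HFD, where 70.1%, 73.0% and 48.2% of them held a UMI. Of the B cells (at least 2 *Cd79a* UMIs), which should lack it, 4.66%, 3.77% and 4.30% did, at median depths of 9053.5, 7276 and 4595 UMIs. *Lat* was found in 113 members and *Skap1* in 126, while *Sh2d1a* was found in 35.

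Members were then divided by receptor genes. A member with a UMI of *Cd3d*, *Cd3e* or *Cd3g* was called T-type, and 106 members were. The 3 genes lie side by side on chromosome 9 (GRCm38, GENCODE M21: *Cd3g* at chr9:44969572-44980431, *Cd3d* at chr9:44981786-44987339, *Cd3e* at chr9:44998740-45009627). *Cd3d* and *Cd3e* had also chosen the members, so this division repeats part of the rule. In 71 members all 3 were found, and in 15 only 1 of them, which was *Cd3g* each time. Of the T-type members, 36 were CD8-type (*Cd8a* or *Cd8b1* without *Cd4*), 14 CD4-type, 6 gamma-delta-type (*Trdc* without *Trac* or a coreceptor) and 50 had no further call. The NK-type, with no CD3 UMI and at least 1 of *Ncr1*, *Klrb1c*, *Klrd1* and *Klre1*, held 8 members. The remaining 46 had neither CD3 nor any of those 4 receptors. Of the 91 T-type members with *Cd3d* or *Cd3e*, 89 also held *Cd3g* or *Trac*, which the rule did not use. *Trac* was also found in 7.60%, 10.7% and 7.53% of the B cells of WT CD, WT HFD and KO HFD. The 15 T-type members with *Cd3g* alone (3 in WT CD, 4 in WT HFD, 8 in KO HFD) held no *Trac*, and 14 of them held *Gata3* or *Il1rl1*, so the name T cell is uncertain for them. The markers go against both names for the 46 members with neither, which are called CD3-negative members here.

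T-type members made up 50 of 67 (74.6%, interval 62.5 to 84.5%) in WT CD, 27 of 37 (73.0%, 55.9 to 86.2%) in WT HFD and 29 of 56 (51.8%, 38.0 to 65.3%) in KO HFD. KO HFD lay 21.2 points below WT HFD, with an interval from -38.5 to -0.893 points. Leaving out mixed members, the difference was -20.1 points and its interval, from -38.3 to 0.925, reached 0. With *Fabp4* left out of the endothelial list it was -23.2 points (-41.0 to -2.23). Whether this interval for counting error reaches 0 thus rests on which KO HFD cells are called mixed. The 2 WT libraries differed by -1.65 points (-19.9 to 14.7). Without the members that had *Cd3g* alone, T-type members were 47 (70.1%), 23 (62.2%) and 21 (37.5%), and KO HFD lay 24.7 points below WT HFD (-42.6 to -3.94).

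CD8-type members numbered 20 in WT CD (29.9%, 19.3 to 42.3%), 12 in WT HFD (32.4%, 18.0 to 49.8%) and 4 in KO HFD (7.14%, 1.98 to 17.3%). The KO HFD share lay 25.3 points below WT HFD (interval -42.0 to -9.15) and 22.7 points below WT CD (-35.3 to -8.95). Without the mixed members the shares were 27.4, 33.3 and 8.33%, and the interval of the difference between KO HFD and WT HFD ran from -42.1 to -7.74 points. Barcodes with at least 2000 UMIs were also thinned to that depth, and the rule was applied again. This left out 252 shallower barcodes of WT CD, 180 of WT HFD and 205 of KO HFD. CD8-type cells were then 9 of 35, 7 of 18 and 3 of 24 members. KO HFD then lay 26.4 points below WT HFD (-50.3 to -0.164) and 13.2 points below WT CD, with an interval from -31.5 to 8.60 that spans 0. The share was lowest in KO HFD in each version, where it rests on 3 or 4 cells.

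CD4-type members numbered 7, 1 and 6 in WT CD, WT HFD and KO HFD (10.4, 2.70 and 10.7%), and no difference between libraries had an interval off 0. *Cd4* is a shallow marker here. It was found in 7 of 67, 2 of 37 and 6 of 56 members, but also in 2.20%, 1.29% and 1.98% of the *Pdgfra* cells. Gamma-delta-type cells numbered 1, 1 and 4. A further cell of WT CD and 1 of WT HFD held *Trdc* beside *Trac*, so T-type cells with *Trdc* numbered 2, 2 and 4. NK-type cells numbered 0 of 67 in WT CD, which allows a share of up to 4.48% by 3 counts of the total and 5.36% by the exact interval, 2 of 37 in WT HFD (5.41%, 0.661 to 18.2%) and 6 of 56 in KO HFD (10.7%, 4.03 to 21.9%). KO HFD lay 5.31 points above WT HFD, with an interval from -8.25 to 16.8 that spans 0, and 10.7 points above WT CD (2.84 to 21.5).

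CD3-negative members made up 17 of 67 in WT CD (25.4%, 15.5 to 37.5%), 8 of 37 in WT HFD (21.6%, 9.83 to 38.2%) and 21 of 56 in KO HFD (37.5%, 24.9 to 51.5%). KO HFD lay 15.9 points above WT HFD (-3.47 to 32.5) and 12.1 points above WT CD (-4.17 to 28.0), so neither difference exceeded counting error. Of the KO HFD cells 4 were mixed, each by the endothelial list and mainly by *Fabp4*, and 17 of 48 (35.4%) were left without mixed members. With *Fabp4* left out of that list, 20 of 51 (39.2%) were left. With barcodes of at least 2000 UMIs thinned to that depth and shallower ones left out, CD3-negative members were 5 of 35 (14.3%), 0 of 18 and 5 of 24 (20.8%). The count of 0 allows up to 16.7% by 3 counts of the total and 18.5% by the exact interval. KO HFD then lay 20.8 points above WT HFD (-0.229 to 40.5).

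**Figure D3:**
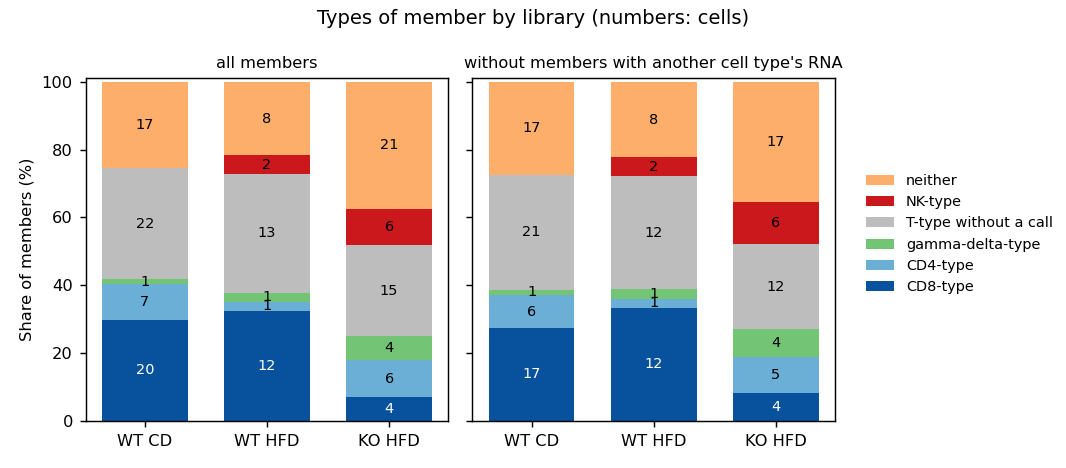
Types of member in each library as stacked shares (%), for all members (left) and without the 14 mixed members (right). Numbers in the bars are cells. The CD8-type took 20 of 67 members in WT CD, 12 of 37 in WT HFD and 4 of 56 in KO HFD.

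The types differed in genes that had not divided them. The levels that follow are CPM of summed UMIs over the 3 libraries without mixed members, as descriptions, because cells of 1 library are not replicates. CD8-type cells (33) held *Ccl5*, a chemokine of memory and cytotoxic lymphocytes, at 17905 CPM, in 27 cells. They also held *Cd28* at 357 CPM, *Ifng*, the gene of interferon gamma, at 186 CPM in 17 cells, *Eomes* at 158 CPM and *Gzmk* at 130 CPM in 13 cells. *Gzma* was found in 1 CD8-type cell and *Gzmb* in 4. *Lef1* (14 cells) and *Ccr7* (6), genes of naive and central memory T cells, were found in some of them.

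CD4-type cells (12) had the highest sum of the regulatory T cell list, 3689 CPM, and the CD3-negative members the next, 2109 CPM. Not every gene of the list was highest in CD4-type cells, since *Il1rl1* and *Areg* were highest in the CD3-negative members. *Tnfrsf4*, the gene of OX40, stood at 834 CPM in 9 cells, against 9.28 CPM in CD8-type cells. *Ikzf2*, which encodes Helios, reached 527 CPM and *Izumo1r*, the gene of folate receptor 4, 512 CPM, each in 6 cells, and *Ctla4*, an inhibitory receptor, 366 CPM in 7 cells. *Foxp3*, the factor that defines regulatory T cells, gave 8 UMIs in 6 members of WT CD, 7 in 4 of WT HFD and 1 in 1 of KO HFD, mixed members included. Without those it was 6 UMIs in 5 members, 5 in 3 and 0 in KO HFD. Only 6 of the 11 members with *Foxp3* also held a *Cd4* UMI, 4 in WT CD, 2 in WT HFD and 0 in KO HFD. In the thinned cells *Foxp3* was left in 2, 1 and 0 members, near the level of 1 UMI, so no order of the libraries was read from it.

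Gamma-delta-type cells (6) held *Trdc* by definition, at 3015 CPM, and with it *Cd163l1* (SCART1) at 678 CPM and *Blk*, a Src-family kinase, at 207 CPM in 5 cells. *Tmem176b* reached 2205 CPM and *Cxcr6*, a receptor of tissue lymphocytes, 358 CPM in 6 of 6. *Il17a* was found in 3 of the 6, all from KO HFD, at 415 CPM, and *Il23r* in 5. The WT CD and WT HFD cells that held *Trdc* (21 and 41 UMIs) beside 1 *Trac* UMI, and so were not of this type, had 6 and 4 *Il17a* UMIs, so *Il17a* was found in all 3 libraries. *Lck*, *Cd5* and *Cd6* were at 0 in these cells. A single cell of KO HFD held 60 of the 138 *Trdc* UMIs of its library.

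NK-type cells (8) held the adaptor genes *Tyrobp* (2441 CPM) and *Fcer1g* (1755 CPM) in 8 of 8, against 4.64 and 27.8 CPM in CD8-type cells. *Ncr1* was found in 6 and *Klrd1* in 8 of them, both part of their definition. *Ccl5* stood at 16263 CPM, *Ccl4* at 2358 CPM and *Xcl1*, which attracts dendritic cells, at 768 CPM. A single KO HFD cell held 303 *Ccl5* UMIs, and no other NK-type cell more than 59. The deepest NK-type cell, from KO HFD, held 12225 of the 36464 UMIs of the type and had no *Ccl5* and no *Gzma*. *Gzma* reached 7048 CPM in 5 of the 8 cells and *Gzmb* 576 CPM in 5, all of them from KO HFD, while the 2 WT HFD cells had 0 of both. *Prf1*, the gene of perforin, stood at 219 CPM in 4. *Mki67*, a gene of dividing cells, stood at 686 CPM, all of it in 1 cell. Their median depth, 3605.5 UMIs, was the lowest of the 6 groups.

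The CD3-negative members shared a set of genes that the rule did not use. Of the 46, 43 held *Gata3* or *Il1rl1* and 38 (82.6%) held both, against 42 (39.6%) and 16 (15.1%) of the 106 T-type members. The 15 T-type members with *Cd3g* alone supplied 14 of those 42 and 11 of those 16, and of the other 91 only 5 held both. In the 42 that were not mixed, *Il1rl1* stood at 394 CPM in 39 cells, *Gata3* at 390 CPM in 35, *Rora*, a factor of innate lymphoid and T helper cells, at 746 CPM in 40, and *Areg* at 636 CPM in 30. The heparan sulphate enzyme gene *Hs3st1* reached 439 CPM, *Csf2*, the gene of the cytokine GM-CSF, 428 CPM in 19 cells, and *Calca*, the gene of the neuropeptide CGRP, 265 CPM in 19. *Il5* was found in 3 and *Il13* in 4 of the cells. *Cd5*, *Cd6*, *Gzma* and *Gzmk* were at 0, as were *Klrd1* and *Ncr1* by definition. The list of 13 group 2 innate lymphoid genes summed to 5232 CPM, against 547 CPM in CD8-type, 768 CPM in NK-type and 2631 CPM in uncalled T-type cells.

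These cells met the rule through *Trbc2* alone in 28 cases, through *Nkg7* alone in 9 and through both in 9. *Trbc1*, which the rule did not use, was found in 34 of the 46, and *Trac* in 6. By library, *Il1rl1* without mixed members was found in 16 of 17 of the CD3-negative cells in WT CD, 6 of 8 in WT HFD and 17 of 17 in KO HFD, at 306, 270 and 532 CPM. *Gata3* stood there at 288, 369 and 505 CPM. The profile was thus present in all 3 libraries. The 42 that were not mixed also had the highest level among the 6 groups for the immediate early and dissociation list, 15286 CPM. The others stood at 11148 CPM (uncalled T-type), 10968 (gamma-delta-type), 9735 (CD4-type), 9599 (NK-type) and 6594 CPM (CD8-type). That list includes *Fosb* (1556 CPM, against 329 in CD8-type cells) and *Atf3* (341 against 4.64 CPM), and its part in the profile was not tested.

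**Figure D4:**
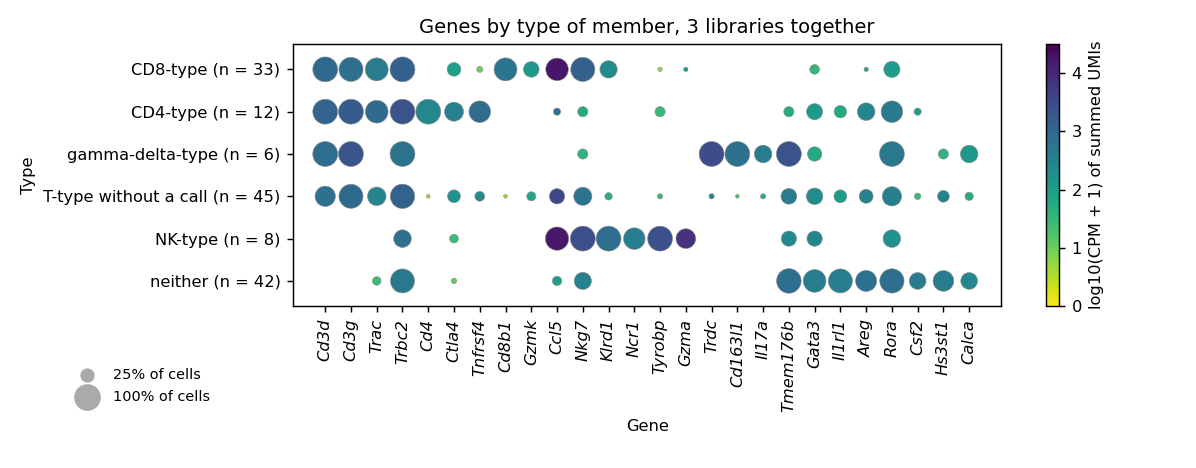
Selected genes (horizontal) in each type of member (vertical, n = cells), 3 libraries together and without mixed members. Colour gives log10(CPM + 1) of summed UMIs and circle area the percentage of cells with a UMI. *Cd3d*, *Cd3g*, *Cd4*, *Cd8b1*, *Trdc*, *Klrd1* and *Ncr1* took part in defining the types, as did *Trac*, and *Cd3d*, *Trbc2* and *Nkg7* chose the members. *Gzma* is concentrated in the NK-type (5 of 8 cells, all from KO HFD), and *Il1rl1*, *Areg* and *Hs3st1* are highest in the last row, the CD3-negative members.

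Libraries were compared over genes in 2 ways, WT HFD against WT CD for the diet and KO HFD against WT HFD for the genotype on HFD. They share the WT HFD library. Genes with at least 40 UMIs in the members of both libraries together were compared, and a CPM ratio of 2 or more was counted. For the diet, 2067 genes were compared. Of these 30 (1.45%) were at least 2-fold higher in WT HFD and 79 (3.82%) at least 2-fold lower. With mixed members left out, 35 of 1681 (2.08%) were higher and 41 (2.44%) lower. Of the 79 lower genes, 26 were also lower without the mixed members and 47 no longer reached 40 UMIs.

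The 10 genes that were lowest in WT HFD against WT CD rested on mixed cells. *Dcn*, *Retnla*, *Lyz1*, *Gsn*, *Sparc*, *Fcrls*, *Pi16*, *Ccl6*, *Col3a1* and *Igfbp6* each had over 50% of their WT CD UMIs in mixed members and over 50% in 1 cell. *Dcn*, the gene of the matrix proteoglycan decorin, gave 339 UMIs in WT CD, 184 of them in 1 cell, and 1 in WT HFD. They are genes of FAPs, macrophages and dendritic cells. Of the 10 genes highest in WT HFD against WT CD, 6 also came mainly from 1 cell. The histone genes *Hist1h1b* (23 UMIs in WT CD, 129 in WT HFD) and *Hist1h2ae* (8 and 57) each had all their WT HFD UMIs in 1 cell. *Hist1h2ap* had 70 of its 74 in 1 cell. *Trdc* had 35 UMIs in WT CD and 49 in WT HFD, of which 1 cell held 41. *Ifi30* had 24 and 46, with 43 in 1 mixed cell, and *Ubac2* 25 and 34, with 25 in 1 cell. *Smc4*, a condensin gene of chromosome packing, was spread more widely, with 30 UMIs in 22 cells of WT CD and 51 in 22 of WT HFD (ratio 3.32, log2 interval 1.05 to 2.43). *C1qbp* (ratio 2.78), *Snrpa1* (2.64) and *Siva1* (2.54) completed the 10, with 26 of 54, 11 of 23 and 12 of 26 WT HFD UMIs in 1 cell. That cell was the deepest WT HFD member, as it was for the histone genes and *Ubac2*. Without it *C1qbp*, *Snrpa1* and *Siva1* had ratios of 1.65, 1.58 and 1.57, and of the 10 genes only *Ifi30*, *Smc4* (2.69) and *Trdc* stayed past 2-fold higher. The direction turned for *Hist1h1b*, at 0 UMIs and at least 3.42-fold lower in WT HFD, and for *Hist1h2ap*, at 4 UMIs and 6.35-fold lower, while *Hist1h2ae* was at 0 and *Ubac2* had a log2 ratio of -0.31. Over all genes, 25 of 1972 (1.27%) were then 2-fold higher in WT HFD and 78 (3.96%) lower, but only 10 of the 30 genes first counted as higher still had a ratio of 2, against 66 of the 79 lower ones. Histone genes are near-identical copies, and their reads may be shared.

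Without the mixed members, *Hdgf*, *Fcer1g*, *Ybx3* and *Hes1* entered the 10 highest in WT HFD (ratios from 2.54 to 2.96), of which 2 rested mainly on 1 cell. The deepest member held 28 of the 44 *Ybx3* UMIs, and without it the ratio was 1.12. Another cell held 17 of the 33 *Hes1* UMIs, and *Fcer1g* had its 26 in 4 cells. *Hdgf* had 28 UMIs in 16 cells and a ratio of 2.46 without the deepest member. The 10 lowest included genes of lymphocytes. *Cxcl10*, an interferon-induced chemokine gene, had 67 UMIs in WT CD and 7 in WT HFD, but 1 WT CD cell held 48. *Izumo1r* had 36 UMIs in 8 cells of WT CD and 5 in 3 of WT HFD (log2 ratio -2.09, interval -3.80 to -0.74). *Gzmk*, the gene of granzyme K, had 39 UMIs in 14 cells and 7 in 5 (-1.72, -3.13 to -0.54), and *Calca* 43 in 14 cells and 7 in 3 (-1.86, -3.26 to -0.70). *Hif1a*, the oxygen-sensing factor, had 92 UMIs in 30 cells and 15 in 11 (-1.86, -2.75 to -1.06), with no more than 14 UMIs in a cell. *Lgals3* (40 and 1 UMIs), *Gm26917* (151 and 23), *Tnfsf8* (58 and 9), *Snhg15* (47 and 8) and *Igkc* (50 and 9) made up the rest, and 31 of the 40 *Lgals3* UMIs and 120 of the 151 *Gm26917* UMIs lay in 1 cell each.

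For the genotype on HFD, 1799 genes were compared, and 94 (5.23%) were at least 2-fold higher in KO HFD and 42 (2.33%) at least 2-fold lower. With mixed members left out, 71 of 1493 (4.76%) were higher and 30 (2.01%) lower. Of the 94 higher genes, 42 were also higher without the mixed members and 45 no longer reached 40 UMIs. Mixed members held over 50% of the KO HFD UMIs for 9 of the 10 genes highest in KO HFD against WT HFD, namely *Lyz1*, *Retnla*, *Dcn*, *Clec3b*, *Fabp4*, *Csrp2*, *Igfbp5*, *Rarres2* and *Fn1*. The exception was *Gzma*.

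*Gzma* (chr13:113093825-113100981), the gene of granzyme A, had 0 UMIs in the 67 members of WT CD, 0 in the 37 of WT HFD and 288 in the 56 of KO HFD. The 6 KO HFD cells that held it had 116, 42, 34, 33, 32 and 31 UMIs, and every other member of the 3 libraries had 0. At 760 CPM against a floor of 3 UMIs over the WT HFD members, it was at least 62.5-fold higher, and at least 77.4-fold higher without mixed members. Of the 6 cells, 5 were NK-type and 1 CD8-type. By 3 counts of the total, the counts of 0 allow up to 4.48% of WT CD members and 8.11% of WT HFD members to hold a UMI, and by the exact interval 5.36% and 9.49%. No *Gzma* UMI was counted in the *Pdgfra* cells or the B cells of any library.

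*Cd8b1*, which encodes the beta chain of CD8, showed the reverse. It had 71 UMIs in 17 of 67 members of WT CD, 47 in 12 of 37 of WT HFD and 14 in 3 of 56 of KO HFD, or 147, 190 and 36.9 CPM. The KO HFD level was 5.15-fold below WT HFD (log2 -2.37, interval -3.34 to -1.48), and 4.16-fold below it without mixed members. *Cd8a* had 22, 12 and 4 UMIs. Within CD8-type cells *Cd8b1* stood at 623, 488 and 598 CPM. The deepest WT HFD member held 33.8% of the UMIs of its CD8-type cells, and without it the WT HFD level was 721 CPM, so no order was read from these values. The lower level over all members went with fewer CD8-type cells, which this gene helps to define. *Ccl5* had 3994, 1203 and 775 UMIs in 31, 21 and 13 cells, or 8272, 4871 and 2044 CPM (9054, 5220 and 2723 CPM without mixed members). Its highest cell held 885, 255 and 303 UMIs, and the median cell 0, 2 and 0. Within CD8-type cells its level was 29243 CPM in WT CD (17 cells), 9121 in WT HFD (12) and 5850 in KO HFD (4). The deepest WT HFD member had no *Ccl5*, and the WT HFD level was 13776 CPM without it. In KO HFD 129 of 137 UMIs came from 1 cell. *Gzmk* had 44, 7 and 0 UMIs.

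**Figure D5:**
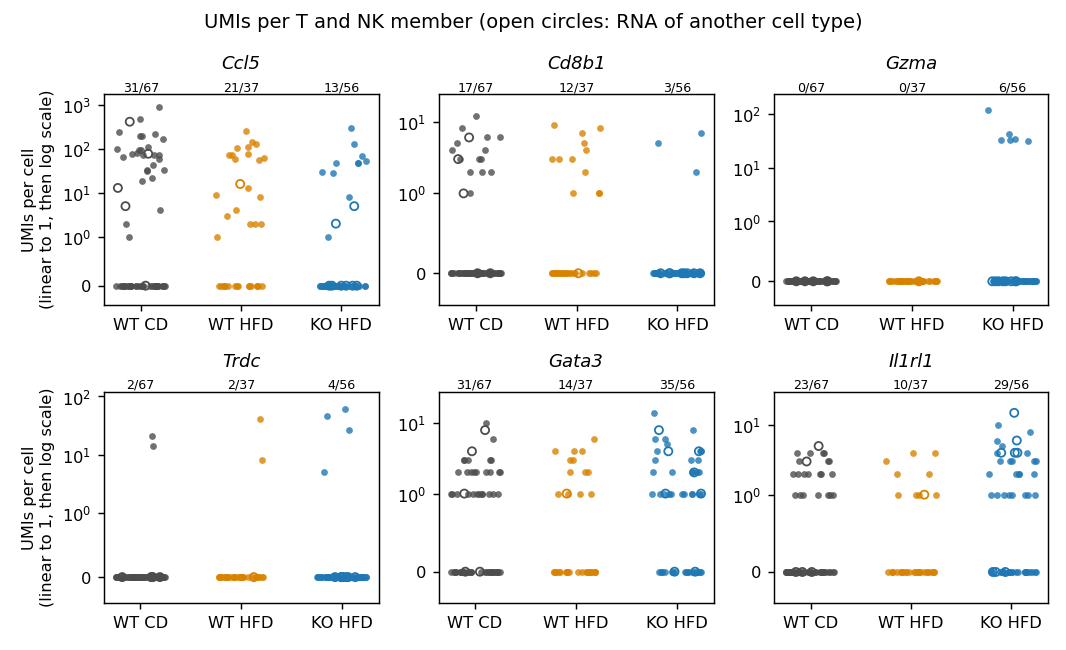
UMIs of 6 genes in each member (vertical axes, linear to 1 and then logarithmic) by library. Each point is a cell, open circles are mixed members, and the fractions give members with a UMI. *Gzma* is found in 6 KO HFD cells with 31 to 116 UMIs and in no other member, and *Cd8b1* in 17, 12 and 3 members of WT CD, WT HFD and KO HFD.

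*Il1rl1* had 54 UMIs in 23 of 67 members of WT CD, 20 in 10 of 37 of WT HFD and 103 in 29 of 56 of KO HFD. KO HFD was 3.35-fold above WT HFD (log2 1.75, interval 1.05 to 2.52), and 2.97-fold without mixed members (19 UMIs in 9 cells and 70 in 24). *Gata3* had 74, 35 and 107 UMIs in 31, 14 and 35 members (KO HFD over WT HFD log2 0.99, interval 0.43 to 1.59, and 1.04 without mixed members). In the cells thinned to 2000 UMIs it was found in 15 of 65, 7 of 37 and 20 of 56. Members with both genes numbered 19 of 67 (28.4%, 18.0 to 40.7%), 9 of 37 (24.3%, 11.8 to 41.2%) and 26 of 56 (46.4%, 33.0 to 60.3%). KO HFD lay 22.1 points above WT HFD (2.02 to 39.0) and 18.1 points above WT CD (0.992 to 34.0). Some mixed members held both genes, more of them in KO HFD than in either WT library, and neither difference was calculated without them. It was thus not tested whether the interval against WT CD, which begins close to 0, stays off it. No difference from WT CD was read from that interval. Of the *Pdgfra* cells, 0.244%, 0.516% and 0.214% held *Gata3*. *Lmo4*, a cofactor of GATA factors, had 203, 78 and 273 UMIs (KO HFD 2.28-fold above WT HFD, and 2.62-fold without mixed members).

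Without the mixed members, the genes highest in KO HFD against WT HFD after *Gzma* were *Gadd45g* (4 UMIs in WT HFD, 40 in 11 cells of KO HFD), *Mki67* (7 and 45, of which 25 in 1 KO HFD cell), *Calca* (7 and 41 in 10 cells) and *Phlda1* (11 and 56 in 21 cells). *Ccl4*, *Hspa1b*, *Snhg15*, *Top2a* and *Cxcl2* followed, the last with 152 of its 252 KO HFD UMIs in 1 cell. The deepest WT HFD member held 5 of the 7 *Mki67* UMIs of WT HFD and 8 of the 12 of *Top2a*, and without it their log2 ratios went from 2.37 to 3.96 and from 1.72 to 3.09, on 2 and 4 WT HFD UMIs. Over all members, *Itga4*, whose integrin alpha 4 lymphocytes use to enter tissue, had 46 UMIs in 17 of 37 members of WT HFD and 15 in 11 of 56 of KO HFD (log2 -2.23, interval -3.18 to -1.37, and -2.10 without mixed members), and no cell held more than 7. *Ankrd12* had 69 UMIs in 23 cells and 30 in 15 (-1.82, -2.49 to -1.18, and -2.09 without mixed members). *Tnfrsf4* had 40 and 11, with 23 in 1 cell of WT HFD. *Hist1h1b* (129 and 22), *Mt2* (33 and 9), *Cxcl10* (93 and 29), *Ifi30* (46 and 15), *Ubac2* (34 and 13) and *Rgs16* (29 and 12) each had most of their WT HFD UMIs in 1 cell, which for *Mt2*, *Cxcl10* and *Ifi30* was the mixed member and for *Hist1h1b*, *Ubac2* and *Rgs16* the deepest one. Without the deepest member, *Hist1h1b* was at 0 in WT HFD and *Ubac2* and *Rgs16* were 1.22-fold and 1.32-fold lower in KO HFD, and 29 of 1699 genes (1.71%) in place of 42 were 2-fold lower. *Lck*, the kinase that starts T cell receptor signalling, had 35 UMIs in 16 cells and 17 in 11 without mixed members (-1.35, -2.28 to -0.48), and *Cdk6*, *Polr2j* and *C1qbp* were also among the 10 lowest there (ratios from 2.53 to 2.77), of which *C1qbp* was 1.44-fold lower without the deepest WT HFD member.

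The gene lists put these genes in the context of their pathways. For the genotype, the median log2 ratio over all 1799 genes was -0.03, and the shares of all genes past 2-fold were the 5.23% higher and 2.33% lower given above (4.76% and 2.01% without mixed members). The list of group 2 innate lymphoid genes had 10 of 13 genes compared, 2 of them (*Il1rl1* and *Lmo4*) 2-fold higher in KO HFD and none lower, with a median of 0.83. Without mixed members 5 of 10 were higher (*Gata3*, *Il1rl1*, *Hs3st1*, *Il2ra* and *Lmo4*) and the median was 0.84, and the summed list stood at 2106 and 3904 CPM (log2 0.89, 0.73 to 1.05). Among members with a CD3 UMI alone, 7 genes of the list were compared and the median was 0.37. The gamma-delta and type 17 list had 7 of 18 genes compared, 2 higher (*Tmem176b* and *Ckb*) and a median of 0.60, and without mixed members *Trdc* was higher too and the median was 1.02. Of the cytotoxic granule list 5 of 12 genes were compared and 1, *Gzma*, was higher, and its sum was 2417 CPM in WT HFD and 3226 CPM in KO HFD. Of the 1223 KO HFD UMIs 288 were *Gzma*, and without that gene the sum was 2466 CPM there. Without mixed members *Lamp1* was higher too, and the sums without *Gzma* were 2366 and 2751 CPM. NK receptors and adaptors had 6 of 22 compared, none past 2-fold, with a median of 0.27, and *Tyrobp* passed without mixed members (median 0.64). Several genes are in more than 1 list.

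The only coreceptor compared was *Cd8b1*, which was lower. T cell signalling and costimulation had 12 of 17 genes compared, with *Lck* and *Cd27* lower, *Cd226* higher and a median of -0.37. The T cell receptor and CD3 complex list had 10 of 11 compared and none past 2-fold (median -0.09), and its sum was 3320 CPM in WT HFD and 2743 CPM in KO HFD. Without mixed members *Trdc* was higher and the sums were 3522 and 3350 CPM (log2 -0.07, -0.21 to 0.07), and the list includes *Cd3d*, *Cd3e* and *Trbc2*, which chose the members. The 24 T and NK genes outside the rule had 18 compared, with *Lck*, *Ms4a4b* and *Ccl5* lower, *Gzma* higher and a median of -0.35, and of the lower genes only *Lck* stayed past 2-fold without mixed members (median -0.22). Chemokines and cytokines had *Ccl5* lower and *Ccl4* higher among 5 of 18, of which *Ccl4* alone passed without mixed members. Among 7 of 12 regulatory T cell genes *Ctla4* and *Tnfrsf4* were lower and *Il1rl1* higher, and without mixed members *Tnfrsf4* was lower and *Il1rl1* and *Il2ra* higher.

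None of 5 tissue residency and activation genes, none of 6 lymphoid transcription factors and 1 of 4 naive and central memory genes (*Igfbp4*, higher) passed 2-fold, with medians of 0.41, 0.45 and 0.22. Of 8 trafficking receptors *Itga4* was lower, and of 3 interferon response genes *Ly6a* was higher. Of 15 immediate early and dissociation genes *Egr1*, *Hspa1a* and *Hspa1b* were higher (median 0.52), genes that tissue digestion is known to induce, and their part in the other results was not tested. Of 7 cell cycle genes *Mki67* and *Top2a* were higher and *Pclaf* lower. The deepest WT HFD member held 24 of the 26 *Pclaf* UMIs of its library, and without it *Pclaf* was higher in KO HFD (log2 2.43), as were *Birc5*, *Stmn1* and *Tubb5*, with *Pclaf* and *Birc5* then below the minimum of 40 UMIs. *Lmo4* (0.99), *Tmem176b* (0.88) and *Ly6a* (0.82) were then short of 2-fold. Without mixed members *Igfbp4*, *Ly6a*, *Hspa1a* and *Pclaf* no longer passed, and *Rgs1*, *Nr4a1*, *Gata3*, *Ccr2*, *Atf3*, *Birc5* and *Lamp1* were higher. With the deepest member left out too, *Rgs1*, *Nr4a1*, *Gata3* (0.83), *Hs3st1*, *Ccr2* and *Trdc* were short of 2-fold, at log2 values from 0.79 to 0.97, and *Ccl5* was lower (-1.16).

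For the diet, the median over all 2067 genes was 0.03, and 1.45% of all genes were past 2-fold higher and 3.82% lower. Most lists had 1 gene past 2-fold or none. *Trdc* was higher among 9 T cell receptor and CD3 genes and among 6 gamma-delta and type 17 genes. None of 15 signalling genes, 1 coreceptor, 10 group 2 innate lymphoid genes, 4 interferon response genes or 19 T and NK genes outside the rule passed, with medians of -0.05, 0.37, 0.11, -0.31 and -0.08. *Izumo1r* was lower among 10 regulatory T cell genes, and *Tcf7* and *S1pr1*, which mark naive and recirculating T cells, among 6 naive and central memory genes. *S1pr1* was also the gene lower among 10 trafficking receptors and *Tcf7* among 10 lymphoid transcription factors. *Rgs1* was lower among 6 tissue residency genes, *Klrc1* among 6 NK receptors, *Gzmk* among 5 cytotoxic granule genes and *Ccl4* among 7 chemokines and cytokines. Of 15 immediate early and dissociation genes *Egr1*, *Hspa1a* and *Hspa1b* were lower, but none of the 3 was without mixed members. *Stmn1* was higher and *Ube2c* lower among 4 cell cycle genes, but the deepest WT HFD member held 42 of the 61 *Stmn1* UMIs, and without it the log2 ratio was -0.23. *Ccl4* (-0.99) and *S1pr1* (-0.83) were then short of 2-fold, and *Ikzf3* was higher (1.17). Without mixed members *Klrc1* no longer passed, *Ikzf2*, *Xcl1*, *Cxcr4*, *Il2rb* and *Atf3* were lower and *Fcer1g* higher, and the median of the group 2 innate lymphoid list was -0.04. With the deepest member left out too, *Ikzf2*, *Xcl1*, *Il2rb*, *Atf3* and *S1pr1* were short of 2-fold.

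*Thbs1*, the gene deleted in the KO mice, was scarce in members. It had 7 UMIs in 2 cells of WT CD, 0 in WT HFD and 7 in 6 cells of KO HFD, and the WT CD UMIs were all in mixed members. Over whole libraries it stood at 136 CPM (132 to 140) in WT CD, 202 (197 to 207) in WT HFD and 163 (159 to 168) in KO HFD. The chemistry reads the 3′ end of a transcript, so these counts check nothing about a deletion upstream of it. Of its receptors, *Cd47* was found in 53 of 67, 27 of 37 and 51 of 56 members, at 367, 340 and 390 CPM. The list of *Thbs1* and its receptors had 3 of 8 genes compared for the diet, none past 2-fold (median -0.11), and 4 for the genotype, with *Itgav* higher, *Itga4* lower and a median of 0.33.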

How the data were processed

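Per the submitters' processing notes, Cell Ranger 6.1.1 aligned 10x Genomics 3′ reads to mm10, and the authors deposited raw UMI counts per gene and barcode for 3 libraries. Those counts were used without rescaling. Members were found by the stated UMI rule, and the members, the 18 gene lists and the 10 other-cell lists were chosen with earlier results of these data known. UMIs were summed over the members of a library and divided by their total (CPM). CPM and ratios carry exact 95% Poisson or conditional binomial intervals, shares have Clopper-Pearson intervals, and a difference between shares has a Newcombe interval. A count of 0 was replaced by 3 UMIs over the group in a ratio, which is then a bound. Genes needed 40 UMIs in both libraries together, and 2-fold was the limit.

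Named genes were those of the rule and the 15 outside it with the largest mean log2 ratio to other barcodes. The 10 largest ratios each way per comparison and up to 5 genes of each list by UMIs were also named. Other genes named for a type, list or library were chosen after their values were seen, as were the limit of 20 UMIs for mixed members the T-type share without members that held *Cd3g* alone the values without the deepest WT HFD member and those with *Fabp4* left out of the endothelial list. A form with only the macrophage, dendritic cell and FAP lists was tried first and marked 11 members in place of 14. Doublets were called with Scrublet in scanpy 1.11.5, at an expected rate of 0.06, and were not removed. Depth was equalised by thinning each barcode that had at least 2000 UMIs to 2000. Shallower barcodes (252 in WT CD, 180 in WT HFD and 205 in KO HFD) were left out of the thinned values. Python 3.11.15, numpy 2.4.6 and scipy 1.17.1 were used. The interval functions were tested on simulated counts that had no spread between cells. That check does not cover genes with most of their UMIs in 1 cell. A few genes of the lists are not reported here by name.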

Additional observations from a re-analysis of the deposited data

How the results depend on the processing

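No paired analysis was possible because each group has 1 library, and for the same reason no library could be left out. Thinning to 2000 UMIs left out shallower barcodes. It lowered the share of members to 0.902% in WT CD, 0.501% in WT HFD and 0.576% in KO HFD. The share of CD3-negative members fell to 14.3%, 0% and 20.8%. With *Ptprc* barcodes as denominator the shares of members were 9.41%, 5.95% and 7.63%. With 2 UMIs of the T and NK genes outside the rule in place of its CD3 and NK counts they were 4.14%, 2.97% and 4.51%, and KO HFD was then the highest. At 20 UMIs in place of 40, 139 genes were at least 2-fold higher and 253 lower for the diet, and 250 and 179 for the genotype. At 80 UMIs these were 8 and 29, and 35 and 11. Without the mixed members, by the 10 lists, by 3 of them or with *Fabp4* left out, 41 genes were lower for the diet. Without the deepest WT HFD member the counts were 25 and 78 for the diet and 89 and 29 for the genotype. Of the 131 alternative values of shares and counts, 23 moved, shares beyond the interval of the main value and counts by over 1.5 times, all given here. Thinning left the shares of NK-type and CD8-type members within those intervals but raised them in KO HFD to 20.8% and 12.5%. Of 108 alternative list medians, 46 moved by over 0.1 on the log2 scale and 13 changed sign, each from a value of at most 0.31 in size.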
